A study of Rattus norvegicus with 5 samples.

Results

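Spinal interneuron identity transcription factors are DNA-binding proteins that set, in the embryo, which class of neuron a spinal precursor becomes, and many of them stay on at low levels in the adult dorsal horn. A list of 37 such factors was examined, and 29 of them had a row under the listed name among the 17321 rows of the gene table. The other listed names, Tlx3, Prrxl1, Pou4f1, Rora, Mafa, Prdm8, Zfhx3 and En1, had no row under those names and were not analysed here. RNA came from lumbar (L4-L6) dorsal horn of Sprague Dawley rats, taken 9 days after surgery. One group (3 libraries) had CCI, which in this field stands for chronic constriction injury, a loose ligation of a nerve that models neuropathic pain. The other (2 libraries) had SHAM surgery, the operation without the injury. The sources used here do not name the nerve, the side taken, the sex or age of the animals, or whether a library is 1 animal, so each p rests on the library-to-library spread, which may be partly technical.

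In the dorsal neural tube, progenitor factors give way to homeodomain, paired-box and zinc finger proteins that divide the neurons into glutamatergic and inhibitory classes. Lmx1b marks glutamatergic dorsal neurons, and Pax2 with Lhx1 and Lhx5 marks those that release GABA or glycine. Ventral classes, which mostly serve locomotion, are marked by factors such as Evx1, Sim1, Shox2 and Gata2. The 29 factors were therefore read in 3 sets. The sets group factors by a role they are known for, and their confinement to dorsal or ventral neurons was not tested. A dorsal set had 16 found of 22 listed (1 glutamatergic, 8 inhibitory and 7 shared or laminar), a set of broadly used factors had 6 of 7, and a ventral set had 7 of 8.

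None of the 28 factors with enough counts to be tested passed edgeR's quasi-likelihood test, either higher or lower in CCI, at an adjusted p of 0.05 and a fold of 1.5. Over all 13478 tested genes 2.85% were called, 2.59% higher and 0.260% lower. DESeq2, limma-voom and the edgeR likelihood ratio test also called no factor. At an unadjusted p under 0.05 there were 2, Ebf3 and Maf, against 16.0% of all tested genes. The dorsal set had a median log2 fold change of 0.33, with 14 of 16 values above 0, and the ventral set one of -0.35, with 2 of 6 above 0. The median over all tested genes was 0.01, with 51.9% above 0. These medians were closer to 0 without SHAM 1, with either of 2 marker covariates and, for the ventral set, under a stricter filter on low counts, as given with the values by library. With other single libraries left out they were also farther from 0, as given at the end.

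The libraries held 20053353 to 23673198 estimated counts each. Ribosomal RNA rows took a share of 16.0% in CCI 3 and of 2.18% to 2.71% in the remaining libraries. Markers of several cell types differed between libraries, and in bulk RNA more or fewer cells of a type cannot be told apart from more or less RNA per cell. Of 12 markers of microglia and macrophages 9 were called higher in CCI, with a summed level of 1050 to 1193 CPM in CCI and 270 to 327 CPM in SHAM (CPM, counts scaled to library size). The 11 fibroblast and meninges markers summed to 170 CPM in CCI 1, 847 CPM in CCI 2 and 715 CPM in CCI 3, and to 176 and 210 CPM in SHAM, and the 10 Schwann cell markers found summed to 162, 377 and 780 CPM in CCI and to 153 and 167 CPM in SHAM, with no call in either list. The 10 motor neuron markers summed to 1122 to 1976 CPM in CCI and to 4248 and 2963 CPM in SHAM 1 and SHAM 2, with 5 called lower, although the tissue is labelled as dorsal horn. Nefh alone took 982 to 1517 CPM of this in CCI and 3330 and 2322 CPM in SHAM 1 and SHAM 2. The 12 general neuron markers had no call and a median log2 fold change of -0.15. They summed to 5797 to 6257 CPM in CCI and to 7180 and 6877 CPM in SHAM 1 and SHAM 2. Of the 8 markers of dorsal root ganglion neurons found, which summed to 54.3 to 70.6 CPM over the CCI and 50.4 to 63.8 CPM over the SHAM libraries, Mrgprx3 was called higher and Mrgprd was at 0 in every library. Of 10 astrocyte markers Gfap was called higher, and the oligodendrocyte and the endothelial and mural markers gave no call. The oligodendrocyte markers still summed to less in CCI, 27558 to 33157 CPM, than in SHAM 1 and SHAM 2, 39043 and 38320 CPM. Of these 10 markers 9 had a log2 fold change below 0, with a list median of -0.34. Of 9 lymphocyte markers found only 2 had enough counts to be tested, and neither was called. The lymphocyte markers summed to 4.67, 16.3 and 7.27 CPM in CCI 1, 2 and 3 and to 4.27 and 3.75 CPM in SHAM 1 and 2.

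**Figure D1:**
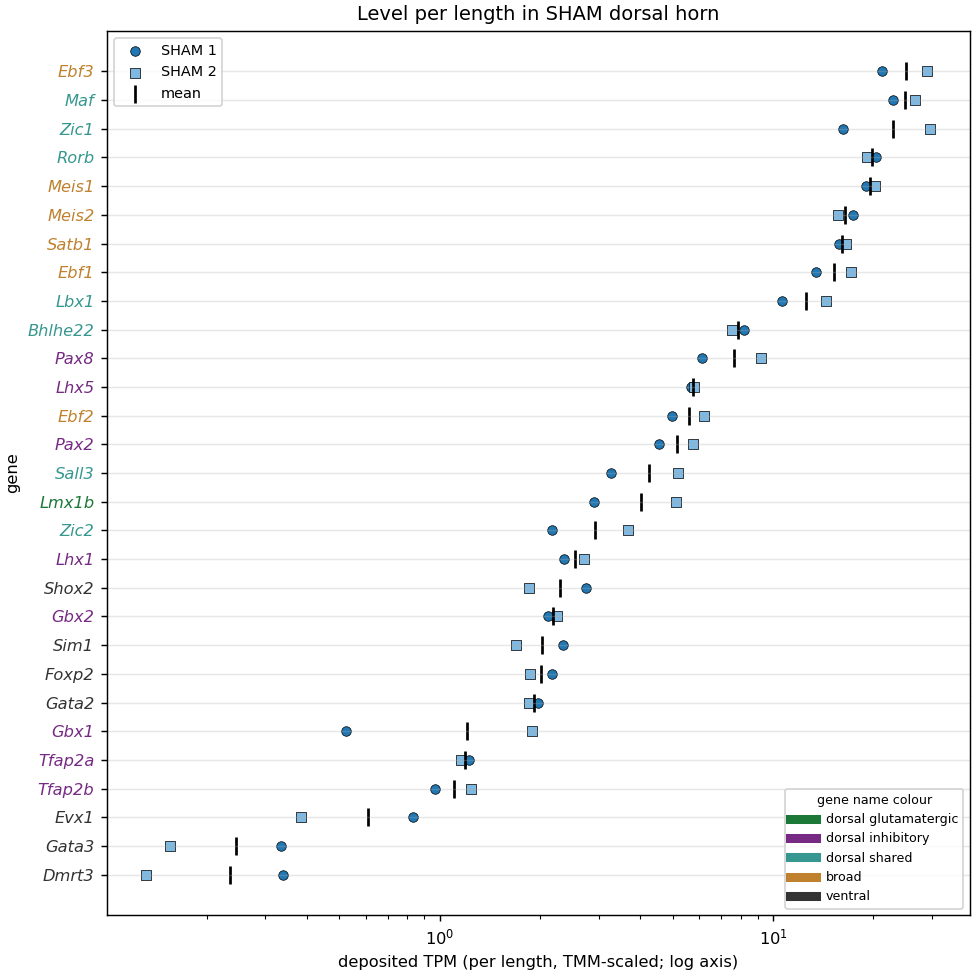
Level of the 29 factors per transcript length in the SHAM libraries, as deposited TPM on a log axis (circle SHAM 1, square SHAM 2, bar their mean). Genes are ordered by the mean, and the colour of a name gives its set. The levels run from 25.1 for Ebf3 to 0.236 for Dmrt3, and the ventral names (dark grey) lie in the lower part.

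Levels of different genes were compared on the deposited TPM scale, which corrects for transcript length. In SHAM, Ebf3 had the highest mean at 25.1 ± 5.47 TPM (SD, n = 2), followed by Maf at 24.8 ± 2.66 TPM and Zic1 at 22.9 ± 9.53 TPM. Dmrt3 had the lowest mean at 0.236 ± 0.146 TPM, below Gata3 at 0.245 ± 0.127 TPM and Evx1 at 0.609 ± 0.316 TPM. The set medians in SHAM were 16.3 TPM for the broad set, 4.69 TPM for the dorsal set and 1.92 TPM for the ventral set. All but 9 factors lay below 10 TPM, and the median over the 15167 rows above 0 was 12.6 TPM. The order is coarse, since 23 of the 28 pairs of neighbours overlapped between the SHAM libraries. The steps without overlap were Meis1 over Meis2, Lbx1 over Bhlhe22, Pax8 over Lhx5, Tfap2b over Evx1, and Evx1 over Gata3. Gata3 had 7 and 3 counts and Dmrt3 14 and 5 counts in SHAM 1 and SHAM 2, so their rank rests on counting noise.

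The base composition of the gene starts played no part in the choice of members. RefSeq promoter windows on the build GRCr8, from 250 bases before to 50 bases after the gene start, were found for 20 of the 29 factors. They held a median of 24 CpG dinucleotides (range 5 to 54), against 7 over all 33469 windows, and their median GC content was 64.8% against 51.7%. Ebf1, with 5 CpG, and Meis1, with 9, stood at the low end, and Lmx1b, with 54, and Sall3, with 52, at the high end. Of 3 motifs searched on both strands, the EBF-type palindrome CCCNNGGG was found in 6 of the 20 windows (30%) and in 12.4% of all windows. The E-box CAGCTG was found in 2 (10%, against 15.1%) and the TATA box TATAAA in 1 (5%, against 14.2%). These shares were not adjusted for GC content, and a match says only that the letters are present. The 250 bases upstream are printed below for the factor with the smallest unadjusted p in each set among those with a window, so that the base composition can be read directly; CpG is in capitals. Maf lies on the minus strand (chr19:60621357-60621606), Ebf3 on the minus strand (chr1:201544306-201544555) and Evx1 on the plus strand (chr4:82746942-82747191), with 27, 33 and 12 CpG in these 250 bases.
Maf: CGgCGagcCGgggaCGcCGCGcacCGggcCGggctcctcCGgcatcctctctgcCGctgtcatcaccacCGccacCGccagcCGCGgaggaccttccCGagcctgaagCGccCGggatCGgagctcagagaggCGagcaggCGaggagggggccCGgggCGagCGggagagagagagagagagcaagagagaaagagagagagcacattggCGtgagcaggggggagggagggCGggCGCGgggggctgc
Ebf3: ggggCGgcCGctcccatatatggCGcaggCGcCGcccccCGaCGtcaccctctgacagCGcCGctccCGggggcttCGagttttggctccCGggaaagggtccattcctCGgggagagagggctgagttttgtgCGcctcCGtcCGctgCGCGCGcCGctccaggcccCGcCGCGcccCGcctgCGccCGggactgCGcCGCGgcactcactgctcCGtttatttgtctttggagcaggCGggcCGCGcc
Evx1: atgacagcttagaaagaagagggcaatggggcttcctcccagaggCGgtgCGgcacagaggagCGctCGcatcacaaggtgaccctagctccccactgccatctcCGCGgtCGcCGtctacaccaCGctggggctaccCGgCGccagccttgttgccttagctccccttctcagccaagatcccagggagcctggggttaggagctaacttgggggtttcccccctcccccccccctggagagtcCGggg

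**Figure D2:**
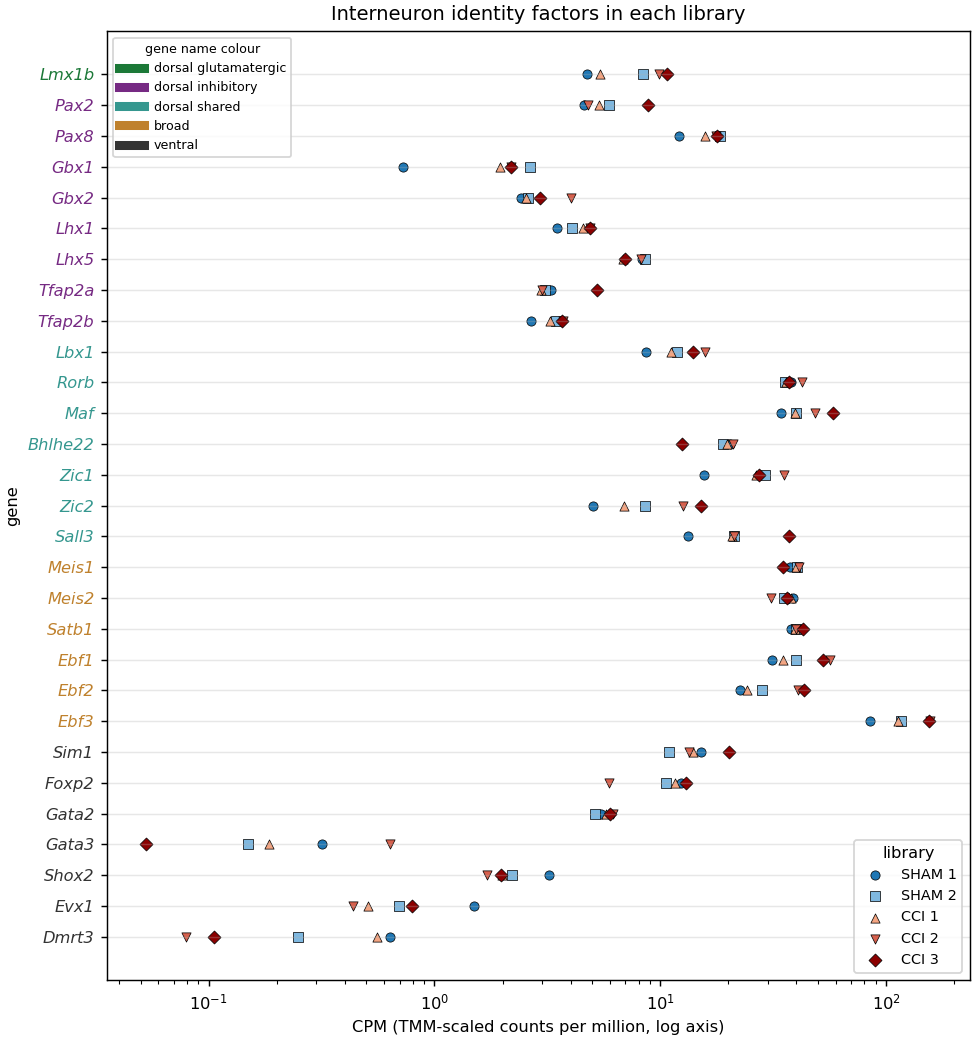
CPM of each of the 29 factors in each of the 5 libraries, on a log axis (blue SHAM, red CCI; one symbol per library), with names coloured by set. For most dorsal names the dark blue circle of SHAM 1 lies farthest left, while SHAM 2 lies among the CCI libraries.

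Among the dorsal glutamatergic factors only Lmx1b, a LIM homeodomain protein needed for the glutamatergic class, had a row under its listed name. It was at 5.41 CPM in CCI 1, 9.88 CPM in CCI 2, 10.7 CPM in CCI 3, 4.73 CPM in SHAM 1 and 8.34 CPM in SHAM 2. The groups overlapped, with CCI 1 near SHAM 1. The log2 fold change was 0.41 (SE 0.35, 95% interval -0.42 to 1.24, edgeR adjusted p = 0.604), and it was -0.28 with CCI 2 and CCI 3 left out. The row Drgx, which the RefSeq gene table pairs with the older name Prrxl1, fell outside the choice by listed name and encodes a paired-like homeodomain protein of dorsal horn and sensory neurons. Its CCI libraries read 8.28, 11.7 and 9.44 CPM and its SHAM libraries 5.68 and 9.69 CPM (log2 fold change 0.36, SE 0.26, edgeR adjusted p = 0.527). Both rows were lowest in SHAM 1.

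The 8 inhibitory factors form 4 pairs of related genes, and no pair had a called member. Pax2, the paired-box protein needed for the GABA phenotype of dorsal neurons, was at 5.32, 4.80 and 8.86 CPM in CCI 1, 2 and 3, against 4.59 and 5.90 CPM in SHAM 1 and 2. Its relative Pax8 was at 15.8, 17.7 and 17.8 CPM in CCI and at 12.1 and 18.3 CPM in SHAM. For both, SHAM 2 lay within or above the CCI values, and the log2 fold changes were 0.27 (SE 0.29, edgeR adjusted p = 0.688) and 0.17 (SE 0.18, edgeR adjusted p = 0.682). The interval of Pax8, -0.25 to 0.58, excludes a change of 1.5-fold, which is 0.585 on the log2 scale.

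Lhx1 and Lhx5, LIM homeodomain proteins that act together to keep Pax2 on in dorsal inhibitory neurons, differed in sign. Lhx1 was at 4.54, 4.88 and 4.88 CPM in CCI and at 3.50 and 4.05 CPM in SHAM. Lhx5 was at 6.85, 8.18 and 7.0 CPM in CCI and at 8.27 and 8.54 CPM in SHAM. Neither overlapped between groups, Lhx1 being above and Lhx5 below SHAM in every CCI library, but neither passed the test. Their log2 fold changes were 0.34 (SE 0.22, edgeR adjusted p = 0.476) and -0.19 (SE 0.17, edgeR adjusted p = 0.609). On the TPM scale the ratio of Lhx1 to Lhx5 was 0.653, 0.589 and 0.687 in CCI and 0.417 and 0.467 in SHAM. This ratio was singled out after 10 such ratios had been seen and has no test.

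Gbx1, a homeodomain factor of late-born dorsal inhibitory neurons, was at 1.94, 2.18 and 2.17 CPM in CCI and at 0.727 and 2.65 CPM in SHAM, where SHAM 1 held 16 counts. Gbx2 was at 2.55, 4.01 and 2.92 CPM in CCI and at 2.41 and 2.60 CPM in SHAM. The SHAM libraries of Gbx1 thus lay on either side of all CCI libraries. Its log2 fold change of 0.33 (SE 0.49) became -0.33 without SHAM 1 and 1.51 without SHAM 2. Tfap2a and Tfap2b, AP-2 proteins that act in inhibitory dorsal neurons, were low in every library, and CCI 3 was the highest for Tfap2a. Tfap2a was at 2.96, 2.98 and 5.25 CPM in CCI and at 3.27 and 3.10 CPM in SHAM, and Tfap2b at 3.24, 3.69 and 3.66 CPM in CCI and at 2.68 and 3.45 CPM in SHAM. Log2 fold changes were 0.34 for Gbx2, 0.22 for Tfap2a and 0.21 for Tfap2b, with edgeR adjusted p of 0.597, 0.764 and 0.720. Gbx1, Tfap2a and Tfap2b had fractional estimated counts, which arise where reads fit more than 1 row, and are uncertain.

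The 7 factors shared by dorsal classes or tied to laminae included the 2 largest positive values among the tested factors. Zic2, a zinc finger protein of the dorsal neural tube, was at 6.90, 12.5 and 15.1 CPM in CCI and at 5.05 and 8.54 CPM in SHAM. Sall3, a spalt-type zinc finger protein, was at 20.8, 21.1 and 37.1 CPM in CCI and at 13.2 and 21.1 CPM in SHAM. In both, CCI 1 lay below SHAM 2, so the groups overlapped. For Sall3, CCI 2 also lay just below SHAM 2 (21.08 against 21.09 CPM), and only CCI 3 was above both SHAM libraries. The log2 fold changes were 0.76 (SE 0.38, edgeR adjusted p = 0.385) for Zic2 and 0.62 (SE 0.34, edgeR adjusted p = 0.438) for Sall3. Zic1 was at 26.5, 35.1 and 27.2 CPM in CCI and at 15.5 and 28.9 CPM in SHAM. Its log2 fold change of 0.42 (SE 0.27, edgeR adjusted p = 0.495) was 0.03 without SHAM 1, the low library. Over the alternatives run it reached 0.92.

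Lbx1, the homeodomain protein that separates the association neurons of the dorsal horn from the more dorsal classes, was at 11.2, 15.8 and 13.9 CPM in CCI and at 8.59 and 11.8 CPM in SHAM. Maf, a leucine zipper protein of deep dorsal horn neurons that is also made by macrophages, was at 39.6, 48.1 and 57.9 CPM in CCI and at 34.0 and 40.0 CPM in SHAM. SHAM 2 reached above CCI 1 for both. Their log2 fold changes were 0.42 (SE 0.20, edgeR adjusted p = 0.359) and 0.39 (SE 0.17, unadjusted p = 0.0469, edgeR adjusted p = 0.305). The microglia and macrophage marker sum given above was higher in all CCI libraries. Of the single markers, Tmem119, Cd163 and Mrc1 overlapped between groups, with CCI 1 below SHAM 2. The part of these markers in the Maf values was not tested. Rorb, a nuclear receptor of laminar dorsal interneurons, differed least in this group, with 36.1 to 42.3 CPM in CCI and 35.7 to 37.8 CPM in SHAM and an interval of -0.19 to 0.33 on the log2 scale. Bhlhe22, a basic helix-loop-helix protein needed by inhibitory neurons that limit itch, was at 19.7, 21.0 and 12.5 CPM in CCI and at 20.4 and 19.0 CPM in SHAM (log2 fold change -0.15, SE 0.21, edgeR adjusted p = 0.767). Its low CCI value came from CCI 3, and the sign turned without that library (0.04).

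**Figure D3:**
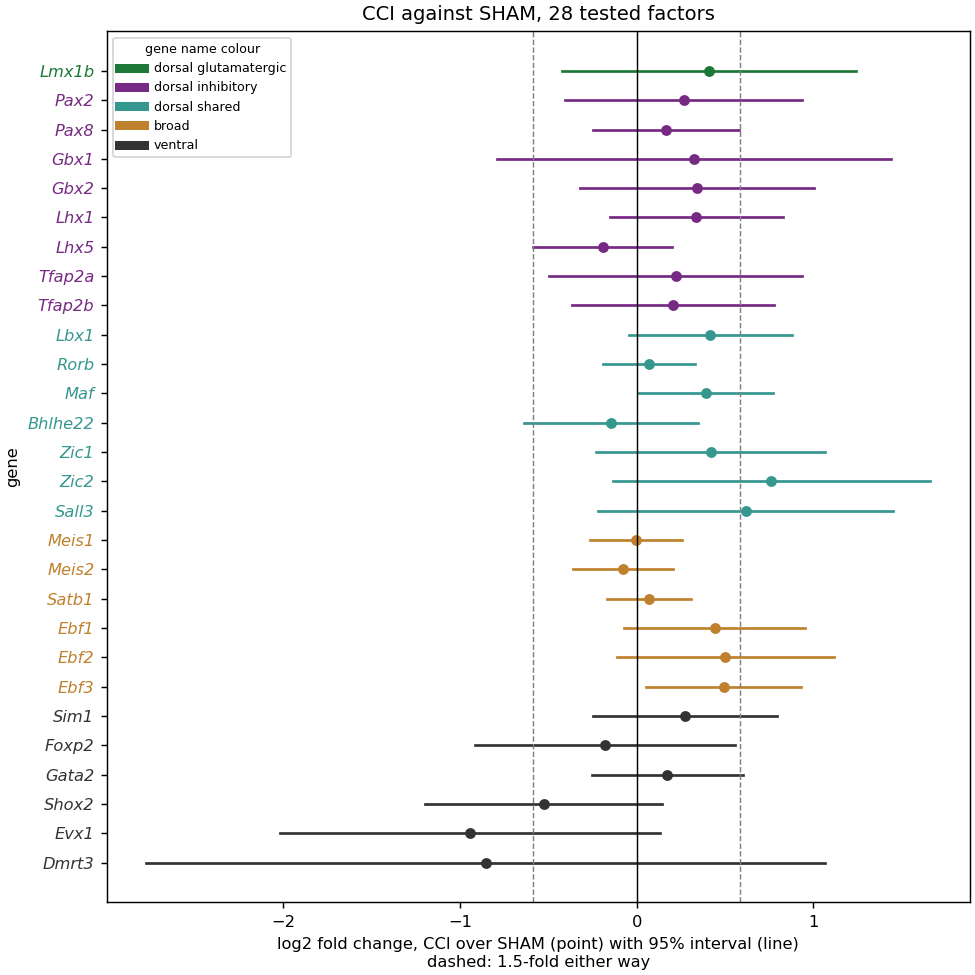
Log2 fold change of CCI over SHAM (points) with its 95% interval (lines) for the 28 tested factors, coloured by set, with dashed lines at 1.5-fold either way. Most dorsal points lie right of 0 and Shox2, Evx1 and Dmrt3 lie left, while all intervals but those of Maf and Ebf3 cross 0.

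In the broad set, the Meis proteins, homeodomain partners of Hox factors, and Satb1, a chromatin organiser, gave the narrowest intervals. Meis1 was at 39.9, 40.9 and 34.8 CPM in CCI and at 37.4 and 40.1 CPM in SHAM (interval -0.27 to 0.26). Meis2 was at 37.9, 30.8 and 36.5 CPM in CCI and at 38.8 and 35.3 CPM in SHAM (interval -0.36 to 0.20). Satb1 ran from 39.6 to 42.7 CPM in CCI and from 37.8 to 39.9 CPM in SHAM (interval -0.17 to 0.31). The groups of all 3 genes overlapped. With Rorb and Pax8 these were the 5 of 28 tested factors whose interval excluded a 1.5-fold change in either direction, against 58.7% of all tested genes. An interval that excluded a change of 2-fold was found for 18 of 28, against 80.8% of all tested genes. For the other 10 a change of that size is within the interval. The median SE of the tested factors was 0.24, against 0.14 over all tested genes. It was 0.26 for Ebf2, 0.27 for Zic1 and 0.34 for Sall3, which were well counted. The cause of the wide intervals was not tested.

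The 3 Ebf genes, which encode helix-loop-helix proteins of differentiating neurons and are also expressed by stromal cells, shared a pattern across the libraries. Ebf1 was at 35.0, 56.6 and 52.4 CPM in CCI 1, 2 and 3, against 31.0 and 39.7 CPM in SHAM 1 and 2. Ebf2 was at 24.3, 40.5 and 43.0 CPM in CCI and at 22.5 and 28.2 CPM in SHAM, and Ebf3 at 113, 157 and 155 CPM in CCI and at 85.1 and 116 CPM in SHAM. In each gene CCI 2 and CCI 3 were above both SHAM libraries and CCI 1 lay between the SHAM libraries. The ratio of Ebf1 to Ebf2 on the TPM scale stayed between 2.38 and 2.82 in the 5 libraries. The log2 fold changes were 0.44 (SE 0.22), 0.50 (SE 0.26) and 0.49 (SE 0.19), with edgeR adjusted p of 0.378, 0.400 and 0.260. Without CCI 1 all 3 were called higher, at 0.63, 0.72 and 0.63 (edgeR adjusted p = 0.0409, 0.0204 and 0.0496). CCI 1 was the only CCI library that overlapped SHAM in these genes, so leaving it out fixed the separation of the groups beforehand. In that fit 763 of 13408 tested genes were called, against 384 of 13478 with all libraries. CCI 2 and CCI 3 are also the libraries with the high fibroblast and meninges marker sums, in which all 11 markers were found and none was at 0. The Schwann cell marker sums are high in the same libraries. With the Schwann cell markers as a covariate the values for Ebf1, Ebf2 and Ebf3 were 0.05, -0.02 and 0.18, and with the fibroblast and meninges markers, an alternative chosen after seeing the data, they were 0.02, -0.02 and 0.18. With CCI 2 and CCI 3 left out they were -0.02, -0.08 and 0.15. In mean log2(CPM + 1) the fibroblast and meninges markers were at 3.03, 4.73 and 4.74 in CCI and at 2.99 and 3.29 in SHAM. The Schwann cell markers were at 2.58, 3.82 and 4.54 in CCI and at 2.35 and 2.80 in SHAM. Each covariate thus largely sets CCI 2 and CCI 3 apart and is partly confounded with the group. A smaller group value was therefore largely fixed beforehand. These alternatives do not tell the marker lists apart, and the part of either cell type in the Ebf values was not tested. Ebf3 had fractional counts, as did Maf, Meis2, Satb1, Sim1 and Foxp2.

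**Figure D4:**
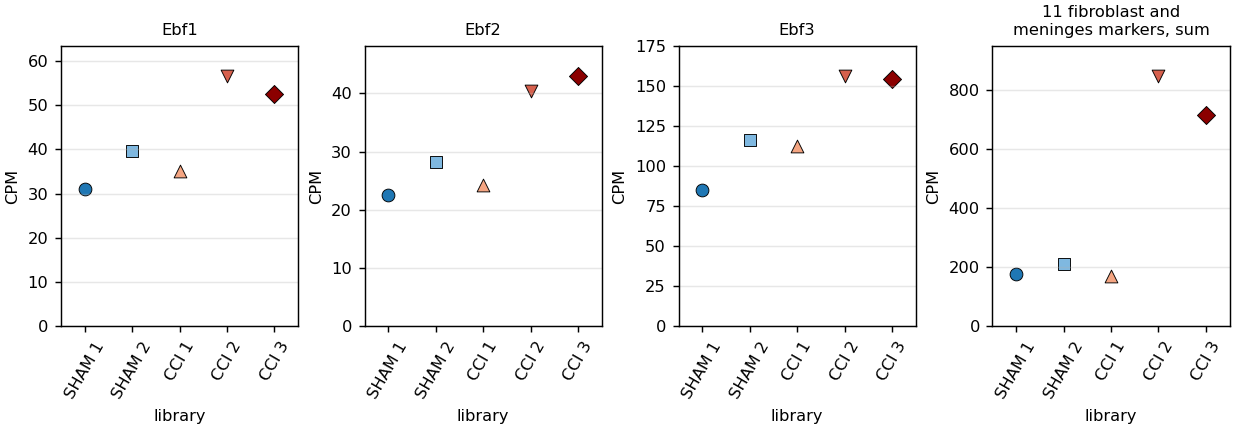
CPM of Ebf1, Ebf2 and Ebf3 in each library and the summed CPM of 11 fibroblast and meninges markers, each on a linear axis from 0. CCI 2 and CCI 3 are the 2 highest libraries in every panel, and CCI 1 lies with the SHAM libraries.

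The ventral factors had the lowest set median in SHAM and gave no call. Evx1, a homeodomain protein of excitatory commissural neurons, was at 0.509, 0.437 and 0.795 CPM in CCI and at 1.50 and 0.700 CPM in SHAM, on 11, 11 and 15 counts against 33 and 14. Shox2, a homeodomain protein of excitatory locomotor neurons, was at 1.99, 1.71 and 1.96 CPM in CCI and at 3.23 and 2.20 CPM in SHAM. All CCI values of Shox2 lay below SHAM, whereas those of Evx1 overlapped. The log2 fold changes were -0.94 (SE 0.47, edgeR adjusted p = 0.374) for Evx1 and -0.53 (SE 0.30, edgeR adjusted p = 0.420) for Shox2. Without SHAM 1, the highest library for both, they were -0.28 and -0.22. Their lowest values over the alternatives run were -1.39 and -0.78. Dmrt3, the factor of inhibitory commissural neurons that is known from the gaits of horses, had 12, 2 and 2 counts in CCI libraries against 14 and 5 in SHAM libraries, with overlap (log2 fold change -0.85, interval -2.78 to 1.07). Its value was -0.02 without SHAM 1 and -1.36 without SHAM 2.

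Of the remaining ventral factors, Sim1 and Gata2 had values above 0 and Foxp2 one below 0. Sim1, the factor of excitatory ventral commissural neurons, was at 13.9, 13.3 and 20.2 CPM in CCI and at 15.2 and 10.9 CPM in SHAM (log2 fold change 0.27, SE 0.23, edgeR adjusted p = 0.584). Foxp2, a forkhead protein of a class of ventral inhibitory neurons, was at 11.6, 5.92 and 12.9 CPM in CCI and at 12.3 and 10.6 CPM in SHAM (-0.18, SE 0.31, edgeR adjusted p = 0.809), and its sign turned without CCI 2, the low library (0.10). Gata2, a zinc finger protein of ventral inhibitory neurons and of blood and vessel cells, was at 5.74, 6.19 and 5.99 CPM in CCI and at 5.45 and 5.15 CPM in SHAM. Its groups did not overlap, and its log2 fold change was 0.17 (SE 0.19, edgeR adjusted p = 0.683). Its partner Gata3 was too low to be tested, with 4, 16 and 1 counts in CCI and 7 and 3 in SHAM. In all, 4 of 28 tested factors did not overlap between groups (Lhx1 and Gata2 above, Lhx5 and Shox2 below), against 36.7% of all tested genes, 18.6% above and 18.1% below.

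**Figure D5:**
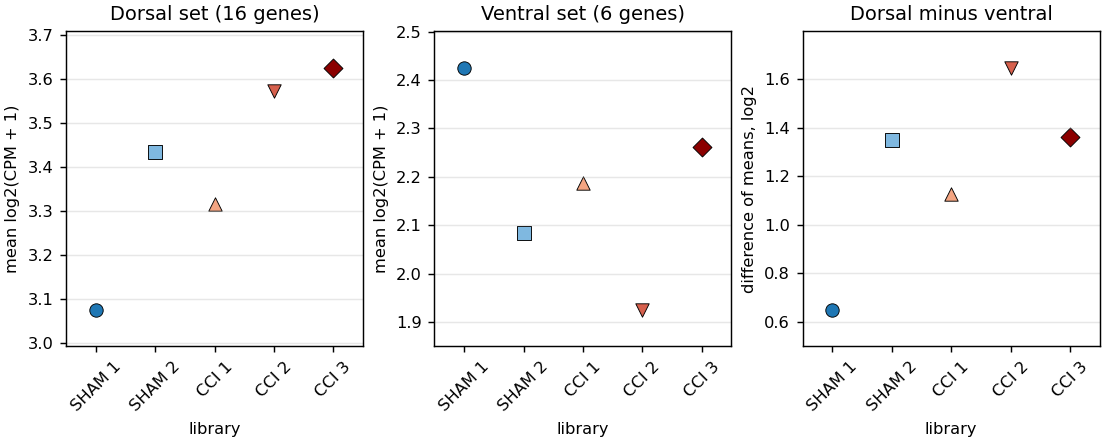
Mean log2(CPM + 1) of the 16 dorsal and 6 tested ventral factors in each library and their difference; the axes do not start at 0. SHAM 1 is lowest in the dorsal panel and highest in the ventral panel, and SHAM 2 lies within the range of the CCI libraries in all 3 panels.

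The dorsal set was set against the ventral factors in each library, as the mean log2(CPM + 1) of the 16 dorsal factors minus that of the 6 tested ventral ones. This log2 difference was 1.13 in CCI 1, 1.65 in CCI 2, 1.36 in CCI 3, 0.65 in SHAM 1 and 1.35 in SHAM 2. SHAM 1 stood below the other 4 libraries, and SHAM 2 lay among the CCI libraries. The dorsal mean alone was 3.32, 3.57 and 3.63 in CCI and 3.08 and 3.43 in SHAM, and the ventral mean was 2.19, 1.92 and 2.26 in CCI and 2.43 and 2.08 in SHAM. SHAM 1 was the lowest of the 5 libraries for 12 of the 16 dorsal factors, against 22.4% of all tested genes, and for 0 of the 6 ventral ones. These counts were made after the values had been seen and have no test. CCI 1 was the lowest CCI library for 14 of the 16 dorsal factors, against 29.2% of all tested genes. Without SHAM 1 the median log2 fold change was 0.10 in the dorsal set and -0.05 in the ventral set, and without CCI 2 the ventral median was -0.14. With other single libraries left out the dorsal median also rose and the ventral median also fell, as given at the end. With CCI 2 and CCI 3 left out together the medians were 0.03 and 0.04. They were 0.07 and -0.06 with the Schwann cell marker covariate and 0.06 and 0.07 with the fibroblast and meninges marker covariate. Both covariates were highest in CCI 2 and CCI 3, so they are partly confounded with the group and overlap with leaving those libraries out. Under a filter of at least 1 CPM in 2 libraries, which leaves fewer ventral genes, the ventral median was -0.01. SHAM 1 also had the highest summed level of motor neuron markers, 4248 CPM against 2963 CPM in SHAM 2. Most of this sum was Nefh, at 3330 CPM in SHAM 1 and 2322 CPM in SHAM 2. Of the other markers, Mnx1 (2.23 and 2.50 CPM) and Mmp9 (0.0455 and 0.0500 CPM) were lower in SHAM 1, and the rest were higher there. The part of these marker levels in the set medians was not tested.

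Other spinal neuron factors were read from further lists. Of 31 further dorsal factors found, 21 were tested, with a median log2 fold change of 0.18, and of 22 further ventral factors found, 17 were tested, with a median of 0.00. Pou2f2, a POU protein of ventral interneurons and of lymphoid and myeloid cells, was called higher. It was at 6.71, 5.60 and 7.64 CPM in CCI and at 3.18 and 2.75 CPM in SHAM (log2 fold change 1.16, SE 0.23, edgeR adjusted p = 0.0326), with fractional counts. It was above SHAM in every CCI library, as was the microglia and macrophage marker sum, whose part in it was not tested. The call was lost without SHAM 1, SHAM 2 or CCI 3 (edgeR adjusted p = 0.255, 0.281 and 0.0907), with limma-voom (adjusted p = 0.0505), and with either marker covariate.

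Of 12 tested motor neuron factors 2 were called lower, with a list median of -0.49. Mnx1, which specifies motor neurons, was at 0.417, 0.198 and 0.477 CPM in CCI and at 2.23 and 2.50 CPM in SHAM, and Lhx4 at 1.67, 1.31 and 1.33 CPM in CCI and at 6.14 and 4.10 CPM in SHAM. All CCI libraries lay below both SHAM libraries, as they did for the motor neuron marker sum. Both calls were lost without either SHAM library, which leaves 1 SHAM library, and with either marker covariate. With the Schwann cell marker covariate 0 genes in all were called lower, and with the fibroblast and meninges marker covariate 6, against 35 in the main test. The log2 fold changes of Mnx1 and Lhx4 stayed between -2.95 and -1.42 in the alternatives run. None of 20 tested maturation factors was called (median 0.05). Their smallest p were those of Pbx3, a Meis and Hox partner (-0.72, SE 0.17, edgeR adjusted p = 0.0759), and Sox4 (0.43, SE 0.12, edgeR adjusted p = 0.128).

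The transmitter genes that these factors are known to control gave no call among 7 tested, with a median log2 fold change of 0.02. Slc32a1, the vesicular transporter of GABA and glycine, was at 106 to 121 CPM in CCI and at 123 and 135 CPM in SHAM (-0.20, SE 0.11, edgeR adjusted p = 0.402). Gad2, a GABA-synthesising enzyme, was at 96.7 to 107 CPM in CCI and at 84.6 and 101 CPM in SHAM (0.15, SE 0.11, edgeR adjusted p = 0.550). These 2 had the smallest p of the list, and their intervals, -0.44 to 0.04 and -0.11 to 0.41, exclude a change of 1.5-fold.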

How the data were processed

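Dorsal horn RNA of 3 CCI and 2 SHAM libraries, grouped by the treatment label, was analysed from tables the authors deposited; replicate numbers follow accession order. The authors' estimated counts per gene symbol were made with kallisto 0.44.0 on rn6, per the submitters' processing notes. The second deposited table, named TPM, holds a deposited signal per transcript length, scaled between libraries by TMM (trimmed means of log ratios) per the labels, so its column sums differ. The sources used here name no annotation, filter or use of strand.

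Estimated counts were rounded. The filter filterByExpr, at a minimum count of 10, kept 13478 of 17321 genes. These entered edgeR's quasi-likelihood test (edgeR 4.0.16, R 4.3.3, TMM scaling, robust glmQLFit, two-sided glmQLFTest), adjusted by Benjamini-Hochberg over all of them. A call needs an adjusted p of at most 0.05 and 1.5-fold, the limits the series states. The SE is the log2 fold change over the root of F, and 95% intervals use the test's degrees of freedom. CPM are TMM-scaled. The script was tested on simulated counts of 13393 genes. It called 33.3% of genes changed 1.5-fold, 73.1% of those changed 2-fold and 97.0% of those changed 4-fold. The changed genes had a mean of at least 1 CPM, and the spread of each gene followed the trend over all genes. The factors had a median SE of 0.24, against 0.14 over all tested genes, so these shares were not measured for them. Alternatives used DESeq2 1.42.0, limma 3.58.1 (voom, or log2 TPM with pseudocounts 0.5 and 0.1), other scalings and filters, a covariate, and each library left out. The marker covariates were highest in CCI 2 and CCI 3 and so are partly confounded with the group. The members and gene lists were chosen with earlier results of these data known. All factors found are named; of other lists, up to 4 called genes by p, or the 2 with the smallest p. Of the further dorsal and ventral lists some results are not reported here, so no count of their calls is given. Promoter windows are RefSeq's (GRCr8). Figures used matplotlib 3.10.9.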

Additional observations from a re-analysis of the deposited data

How the results depend on the processing

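Of 529 log2 fold changes of single factors under 19 alternatives (17 planned, and 2 chosen after seeing the data), 489 kept direction and side of the threshold, 37 changed sign and 3 gained a call. The sign held in every alternative run for 15 factors and turned somewhere for 13; the cause was not tested. No factor was called lower in any alternative; 0 to 3 were called higher with 1 library left out, the 3 being Ebf1, Ebf2 and Ebf3 without CCI 1, and 0 otherwise. With SHAM 1 or SHAM 2 left out, the lone SHAM library is assumed to vary like the CCI libraries, and 61 or 78 genes in all were called, against 384. The likelihood ratio test called 646, DESeq2 614, limma-voom 331, the Schwann covariate 177, the fibroblast covariate 225, and leaving out CCI 1 763.

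With a Schwann marker covariate the sign turned for Bhlhe22 (0.13), Dmrt3 (0.36), Ebf2 (-0.019), Lmx1b (-0.25), Meis1 (0.067), Pax2 (-0.13) and Tfap2a (-0.20), and the set medians were 0.069 (dorsal) and -0.057 (ventral). With a fibroblast and meninges marker covariate, an added alternative, it turned for Dmrt3 (0.23), Ebf2 (-0.021), Foxp2 (0.011), Lmx1b (-0.24), Meis1 (0.031), Meis2 (0.030), Rorb (-0.0064) and Tfap2a (-0.064), with medians of 0.059 and 0.069. Without CCI 2 and CCI 3 together, also added, it turned for Dmrt3 (0.29), Ebf1 (-0.025), Ebf2 (-0.076), Foxp2 (0.0062), Lmx1b (-0.28), Meis1 (0.032), Meis2 (0.020), Rorb (-0.037) and Tfap2a (-0.12), with medians of 0.029 and 0.042. Meis1 also turned with library totals (3.57e-05) and on the TPM scale with pseudocounts 0.5 (0.0169) and 0.1 (0.0172).

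With single libraries left out, log2 fold changes ran from -0.29 to 0.044 for Bhlhe22, -1.36 to -0.024 for Dmrt3, -1.39 to -0.28 for Evx1, -0.40 to 0.10 for Foxp2, -0.33 to 1.51 for Gbx1, -0.055 to 0.059 for Meis1, -0.16 to 0.0070 for Meis2, -0.053 to 0.45 for Pax2, -0.10 to 0.49 for Pax8, -0.0013 to 0.12 for Rorb and -0.10 to 0.36 for Tfap2a. The dorsal median ran from 0.10 to 0.47 and the ventral one from -0.54 to -0.045. A filter of at least 1 CPM in 2 libraries left out Dmrt3 and Evx1, with a ventral median of -0.0097, and Dmrt3 did not pass the count filter without CCI 1. The dorsal minus ventral level was 1.51, 2.33 and 1.92 in CCI and 0.82 and 1.82 in SHAM with log2(CPM + 0.1), and 1.78, 2.30 and 2.03 in CCI and 1.28 and 1.99 in SHAM with log2(TPM + 0.5). No paired analysis was possible because the labels give no replicate numbers shared between the groups.

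Gata3 had too few counts to be tested. Intervals for 10 of 28 factors include a 2-fold change, among them well-counted ones such as Zic1, Ebf2 and Sall3.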
